A study of Homo sapiens with 23 samples.

Results

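The mono-ADP-ribosyltransferases of the PARP family were followed in PC-3 cells after induction of PARG, the hydrolase that degrades poly(ADP-ribose). The 10 genes were taken by name from the 21463 gene rows of the authors' deposited table: PARP4, PARP6, PARP8, PARP9, PARP10, PARP11, PARP12, PARP14, PARP16 and TIPARP, which is also called PARP7. PC-3 is an established line from a bone metastasis of a human prostate cancer. All cells carried a lentiviral TetOne construct in which a doxycycline-inducible promoter drives PARG cDNA joined to the green fluorescent protein mClover3 by a cleavable link. Clones I4 and H6, each grown from a single cell, were cultured for 72 h without doxycycline or with 500 ng/ml. Experiment N used passage 5 cells and libraries made at Novogene without strand selection, and experiment B used passage 7 cells and strand-specific libraries made at QB3. The 23 poly(A)-selected libraries form 8 groups of 3 wells, except that untreated H6 in experiment B has 2. The wells of a group come from 1 clone, and PC-3 cells lacking the construct were not analysed here. An effect of doxycycline itself and an effect of PARG cannot be told apart.

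These enzymes take ADP-ribose from NAD+ and attach a single unit to a protein, whereas PARP1, PARP2 and the tankyrases extend such units into chains. PARG cleaves the bonds within a chain and leaves the last, protein-linked unit, which other hydrolases such as the macrodomain protein MACROD1 remove. PARP9, PARP10, PARP12 and PARP14 are known as interferon-induced genes, TIPARP as a target and repressor of the aryl hydrocarbon receptor, PARP4 as a part of the vault particle and PARP16 as a protein of the endoplasmic reticulum membrane. PARP9 has no transferase activity on its own and works with the ubiquitin ligase DTX3L. PARP6 and PARP8 are close relatives of each other, and PARP11 carries a WWE domain, a fold that binds ADP-ribose chains.

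The interferon-type members PARP9, PARP12 and PARP14 share a promoter feature that is shown here because their values are set beside those of interferon-induced genes. PARP10, also of this type, could not be searched. The motif searched was the core of the interferon-stimulated response element, GAAANNGAAA, where N is any base, on both strands of RefSeq promoter windows (GRCh38.p14) that run from 250 bases before to 50 bases after a gene's start. Promoter windows were found for 8 of the 10 members, all but PARP4 and PARP10. Of these 8, PARP9, PARP12 and PARP14 held the motif. Each site is given below as 30 bases, 5′ to 3′, on the strand that reads the motif forward, with the motif in capitals, and both sites of IFIT1, an antiviral interferon-induced gene, are added for comparison.
PARP9 and DTX3L, chr3:122564322-122564351, plus strand: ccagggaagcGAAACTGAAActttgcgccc
PARP12, chr7:140062942-140062971, plus strand: ggcgggaaacGAAACCGAAAgcggccccgg
PARP14, chr3:122680800-122680829, plus strand: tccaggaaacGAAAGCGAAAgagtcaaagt
IFIT1, chr10:89392497-89392526, minus strand: accgaaagggGAAAGTGAAActaaagctag
IFIT1, chr10:89392510-89392539, minus strand: gaaacctaggGAAACCGAAAggggaaagtg
PARP9 and DTX3L are neighbours on opposite strands, and 1 copy of the motif falls in both windows. By the RefSeq starts of these windows, the motif lies 41 to 32 bases before the PARP9 start, and it spans the DTX3L start. It ends 1 base before the PARP12 start and lies 29 to 20 bases before the PARP14 start. The gene spans printed below are from GENCODE and begin further upstream, so the sites lie within those spans. Of all 27305 genes with a promoter window 4.38% held the motif, and of those with a mean level of at least 1 RPKM 3.68% did. Among the listed interferon-induced effectors the motif was found in 22 of 33. The xenobiotic response element, TNGCGTG, to which the aryl hydrocarbon receptor binds, was found in 0 of the 8 members, TIPARP included, and in 6.69% of all genes. A match describes these letters in this window and is not evidence of binding.

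For each clone and experiment, the authors' deposited table compares doxycycline with none. Each comparison has a level, which is the higher group mean and fits the scale of RPKM (a read density scaled to transcript length and library size), a signed fold and a q-value. A positive fold is read as higher with doxycycline because PARG, the induced gene, is positive throughout, at 1.35 for I4 and 2.15 for H6 in experiment N and at 1.4 and 1.99 in experiment B. The mean of the other group was calculated as the listed level divided by the fold and is approximate. The table holds no value per library, so no SD can be given, single wells cannot be inspected, and the authors' q-value is the only test. All levels, folds and q-values that follow come from the authors' deposited table or were calculated from it. The 4 comparisons share no library. Values of single reads put the depth at about 36.1 to 42.6 M reads per library in experiment N and 21.4 to 23.2 M reads in experiment B. The epithelial keratins KRT8 and KRT18 were listed at 25.1 RPKM or more, the epithelial cadherin CDH1 at 0.332 to 0.394 RPKM, and the leukocyte gene PTPRC at 0.0515 RPKM or less, while of 4 fibroblast genes COL1A1 was listed at 6.23 to 17.7 RPKM and COL3A1, DCN and LUM at 0.634 RPKM or less.

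Of the 10 members, 8 had a mean listed level of at least 1 RPKM over the 4 comparisons of the authors' deposited table. PARP4 was the most abundant, with listed levels of 25.8 to 43.8 RPKM. TIPARP followed at 11.9 to 16.4 RPKM and PARP14 at 5.57 to 7.97 RPKM. The ranges of PARP16 (3.34 to 3.59 RPKM), PARP9 (2.51 to 3.95 RPKM) and PARP12 (2.93 to 3.27 RPKM) overlapped in the authors' deposited table, so their order is not fixed. PARP10 spanned 1.17 to 3.50 RPKM, PARP11 1.05 to 1.18 RPKM and PARP8 0.593 to 1.17 RPKM. PARP6 stood far below the others, at 0 to 0.00286 RPKM.

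**Figure D1:**
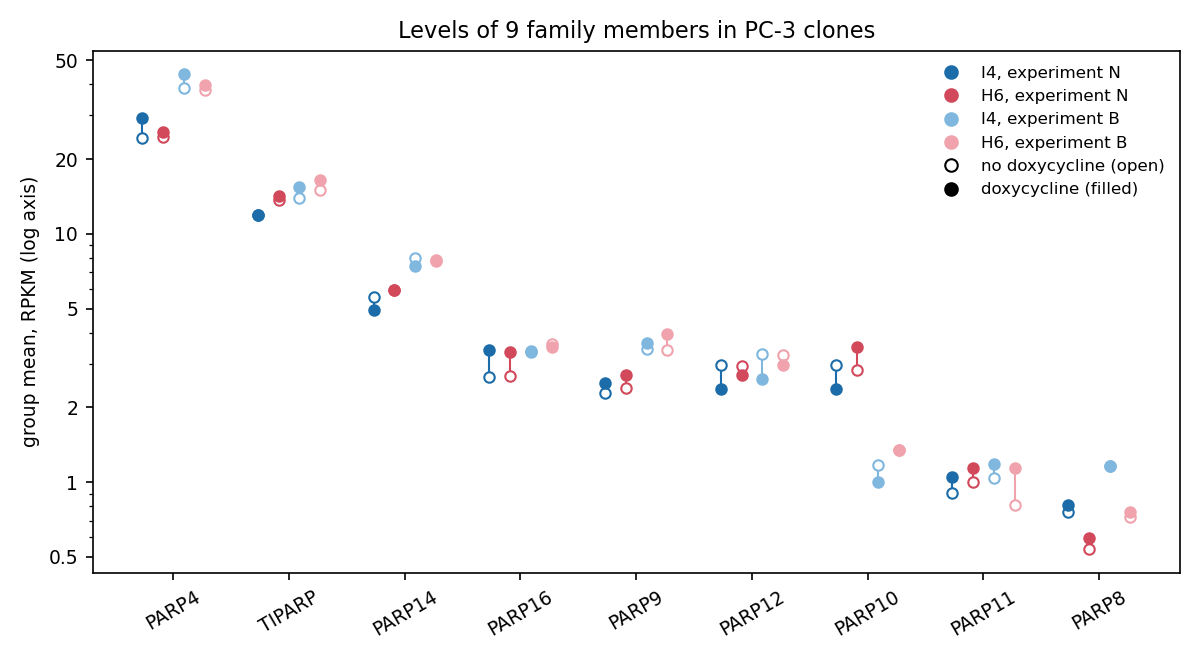
Group means of 9 members in RPKM (log axis) for each clone and experiment, without doxycycline (open) and with it (filled); the lower mean of each pair was calculated from the listed level and fold, and a line joins the 2 groups of 1 comparison. PARP4, TIPARP and PARP14 lie above the rest in every group, and PARP10 is the member whose level differs most between the experiments.

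No member was called, at an authors' q-value under 0.05, with one sign in all 4 comparisons, while 556 of the 15063 genes tested in all 4 (3.69%) were. The table gives no unadjusted p for these genes, and no other tool could be run on it. In all, 6 of 38 tests of members passed, spread over 5 members. In clone I4 of experiment N, PARP4 and PARP16 were called higher and PARP10 lower among 10 tested, beside 7.18% of all genes tested called higher and 8.53% lower. In H6 of experiment N, PARP10 was called higher and none lower, beside 6.57% and 7.07% of all genes. In I4 of experiment B, none of 9 tested was called higher and PARP12 was called lower, beside 7.46% and 6.59%. In H6 of experiment B, PARP11 was called higher and none lower among 9 tested, beside 3.63% and 3.93%. Among genes of at least 1 RPKM, which 8 members reach, the share called in either direction was 22.9% and 20.3% for I4 and H6 in experiment N and 19.1% and 10.3% in experiment B. The called members in the same order numbered 3, 1, 1 and 1 of these 8, and counts this small are not read as a result about the family.

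The folds of the members were small. In bulk RNA, a change in RNA per cell and a change in the share of cells that express a gene cannot be told apart. Over the 8 members of at least 1 RPKM, the median log2 fold was 0.07 and 0.12 for I4 and H6 in experiment N and 0.05 and 0.03 in experiment B, beside medians of -0.01, -0.01, 0.00 and 0.01 over all genes of that level. Over all members tested, which adds PARP8 and, in experiment N, the few reads of PARP6, the medians were 0.11, 0.16, 0.01 and 0.06. The largest fold of a member of at least 1 RPKM in the authors' deposited table was 1.42, for PARP11. PARP4, PARP9 and PARP11 had positive folds in 4 of 4 comparisons, PARP12 had negative folds in 4 of 4, and the other members of at least 1 RPKM had both signs. PARP8, PARP9, PARP14 and TIPARP were not called in any comparison. A fold of the usual size here was seldom called: of genes at 2 to 8 RPKM with a fold of 1.05 to 1.15 in either direction, at most 0.376% were called in any comparison. At the same level and a fold of 1.15 to 1.25, 47.5%, 51.5% and 46.0% were called in I4 and H6 of experiment N and I4 of experiment B, against 14.6% in H6 of experiment B, whose untreated group has 2 libraries.

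**Figure D2:**
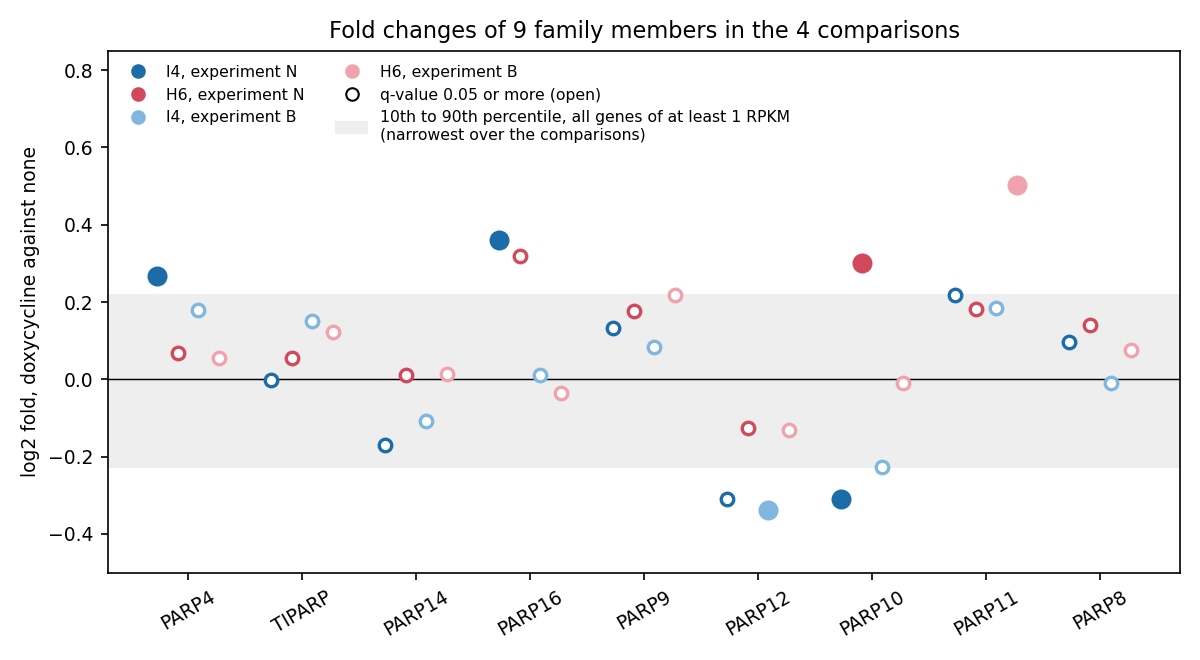
Log2 fold, doxycycline against none, of 9 members in the 4 comparisons; large filled points have an authors' q-value under 0.05, open points do not, and the grey band is the narrowest of the 4 comparisons' ranges from the 10th to the 90th percentile of genes of at least 1 RPKM. The 6 filled points belong to PARP4, PARP16, PARP12, PARP10 (1 higher, 1 lower) and PARP11, and no member has more than 2.

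PARP4, the vault-particle member at chr13:24420926-24512810 on the minus strand, rose in 1 of the 4 comparisons. In I4 of experiment N its level was 24.3 RPKM without and 29.3 RPKM with doxycycline in the authors' deposited table (fold 1.2, q-value 0.00130). In I4 of experiment B it was 38.7 and 43.8 RPKM (fold 1.13, q-value 0.0701 in the authors' deposited table). In H6 the groups lay closer, at 24.7 and 25.8 RPKM in experiment N (fold 1.05, q-value 0.746) and 38.1 and 39.6 RPKM in experiment B (fold 1.04, q-value 1.00). All 4 folds of PARP4 were positive, with a mean log2 fold of 0.14 (SD 0.10 over the 4 comparisons). About 16770 to 19954 reads lie behind the higher group mean of each comparison, which gives a counting error of 0.708 to 0.772%. This error covers the counting of reads only and leaves out the spread between wells, which is not known. Among the other vault components, the major vault protein gene MVP was called higher in H6 of experiment N (fold 1.15, q-value 0.0455 in the authors' deposited table). TEP1, the telomerase-associated vault protein, was called higher in I4 of experiment B (fold 1.29, q-value 0.00352). Neither was called in the comparison in which PARP4 was.

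PARP12, a zinc-finger and WWE-domain member at chr7:140023744-140063721, had the lower level with doxycycline in all 4 comparisons and was called in 1. In I4 of experiment B its level was 3.27 RPKM without and 2.59 RPKM with doxycycline in the authors' deposited table (fold -1.26, q-value 0.00817). In I4 of experiment N the levels were 2.95 and 2.38 RPKM (fold -1.24, q-value 0.0572 in the authors' deposited table). In H6 they were 2.93 and 2.69 RPKM in experiment N (fold -1.09, q-value 0.501) and 3.25 and 2.97 RPKM in experiment B (fold -1.09, q-value 0.774). The untreated levels of both clones were nearly equal within each experiment, and both I4 folds were larger in size than both H6 folds. Whether the clones differ in this response was not tested, since that needs values per library. The mean log2 fold of PARP12 was -0.23 (SD 0.11 over the 4 comparisons).

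PARP10, which modifies proteins in the cytosol and nucleus and binds ubiquitin, was called in opposite directions in the 2 clones of experiment N. In I4 its level was 2.95 RPKM without and 2.38 RPKM with doxycycline in the authors' deposited table (fold -1.24, q-value 0.00351). In H6 it was 2.84 RPKM without and 3.50 RPKM with (fold 1.23, q-value 0.00359 in the authors' deposited table). The untreated levels were 1.04-fold apart. Whether the clones differ in this response was not tested, since that needs values per library. Such opposite calls were made for 13 of the 16384 genes tested in both clones of experiment N (0.0793%) and for 14 of 15237 in experiment B (0.0919%), where PARP10 was not among them. In experiment B, I4 had 1.17 RPKM without and 0.998 RPKM with doxycycline (fold -1.17, q-value 0.477), and H6 had 1.35 and 1.34 RPKM (fold -1.01, q-value 1.00). About 370 to 451 reads lie behind the PARP10 levels in experiment B, against 2057 to 2283 in experiment N. In I4 of experiment N, PARP12 had almost the same level and fold as PARP10 (2.95 RPKM and -1.24) with a q-value of 0.0572 in the authors' deposited table, so the authors' q-values differed between 2 genes of like level and fold.

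Exons of PARP10 overlap those of 2 genes on the other strand, GRINA over 324 bases (5.37% of the PARP10 exon bases) and SPATC1 over 197 bases (3.27%). GRINA, a gene for a transmembrane protein, was listed at 99.5 and 126.7 RPKM for I4 and H6 in experiment N, where libraries are not strand-specific. Its fold in the authors' deposited table was 1.07 in I4 (q-value 0.489) and 1.21 in H6 (q-value 0.000705) of experiment N. In experiment B it was -1.06 in I4 (q-value 0.640) and 1.12 in H6 (q-value 0.274). In H6 of experiment N, both genes were called higher, and in I4 PARP10 was called lower while GRINA was not called. The sources used here do not say how the authors counted shared bases, and the part of GRINA reads in the PARP10 values was not tested.

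PARP10 was also the member whose level differed most between the experiments. Its untreated level was 2.53-fold higher in experiment N than in B in I4 and 2.10-fold higher in H6. PARP10 has the highest GC content of the members, 66.9% in its longest transcript, and 306 genes of at least 1 RPKM lie within 2 percentage points of it. These genes had a median of 2.28-fold in I4 and 2.03-fold in H6 in the same direction, so PARP10 stood close to genes of like composition. Across 10709 genes, Spearman's rho between GC content and the log2 ratio of experiment N to B was 0.63 in I4 and 0.45 in H6, given as a description of levels that share kits, depth and base composition. The other members of at least 1 RPKM have 39.1 to 54.5% GC, and their untreated levels were lower in experiment N than in B, except PARP11 in H6. PARP4 was 1.59-fold lower in I4 and 1.55-fold lower in H6, and PARP9 1.5-fold and 1.42-fold lower. The PARP4 log2 ratios, -0.67 in I4 and -0.63 in H6, lay below the 10th percentile of genes of 44 to 48% GC (-0.55 and -0.56). Those of PARP16, -0.33 and -0.42, lay below that of genes of 52 to 56% GC (-0.28 and -0.36). The other members of at least 1 RPKM lay between the 10th and 90th percentiles of their own GC step. Passage, library kit, strand and sequencing site all change with the experiment and cannot be told apart. For doxycycline against none, the same 306 genes had median log2 folds of -0.05 and 0.03 for I4 and H6 in experiment N and -0.07 and 0.01 in experiment B.

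**Figure D3:**
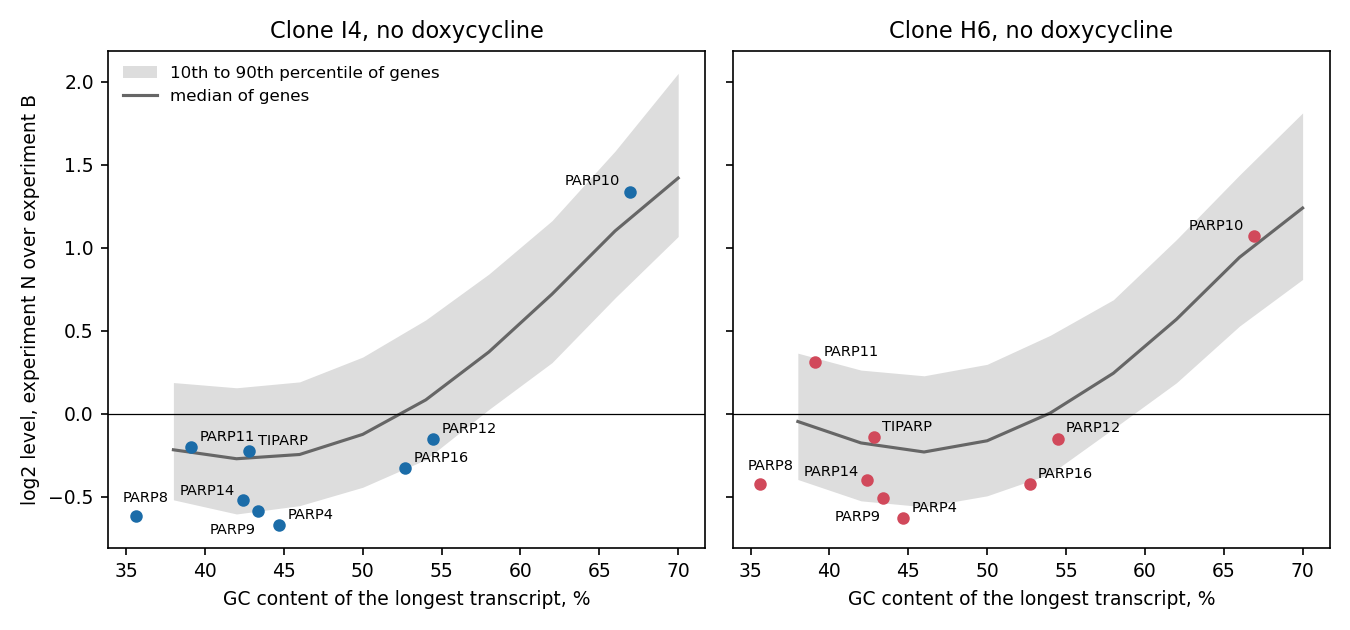
Log2 ratio of the untreated level in experiment N to that in experiment B against the GC content of the longest transcript in percent, for clone I4 (left) and clone H6 (right); the line and band are the median and the 10th to 90th percentile of all genes of at least 1 RPKM in steps of GC content, and points are 9 members. PARP10, at 66.9% GC, lies near the line at 1.34 in I4 and 1.07 in H6, and the other members lie below 0 except PARP11 in H6.

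PARP9, at chr3:122527924-122564577, was higher with doxycycline in 4 of 4 comparisons without a call. In experiment N its levels without and with doxycycline were 2.29 and 2.51 RPKM for I4 and, for H6, 2.39 and 2.70 RPKM in the authors' deposited table. In experiment B they were 3.44 and 3.64 RPKM for I4 and, for H6, 3.39 and 3.95 RPKM. The folds ran from 1.06 to 1.16 and the q-values from 0.155 to 0.797 in the authors' deposited table. DTX3L, which shares the promoter motif shown above, had negative folds in 4 of 4 comparisons and was called in I4 of experiment B (8.34 RPKM without and 6.90 RPKM with doxycycline, fold -1.21, q-value 0.00490). In the other 3 comparisons the DTX3L folds were -1.12, -1.05 and -1.01. PARP9 and DTX3L thus had opposite signs throughout, but the difference between them was not tested. Their exons overlap over 217 bases on opposite strands.

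PARP14, a macrodomain protein that acts in interferon and interleukin-4 responses, lies at chr3:122680618-122730840 on the plus strand. In I4 its level was 5.57 RPKM without and 4.95 RPKM with doxycycline in experiment N (fold -1.12, q-value 0.112 in the authors' deposited table). In I4 of experiment B it was 7.97 and 7.40 RPKM (fold -1.08, q-value 0.522). In H6 the 2 groups were level in both experiments, at 5.92 and 5.97 RPKM and at 7.80 and 7.87 RPKM, with folds of 1.01 in the authors' deposited table. PARP14 therefore had negative folds in I4 and folds of about 1 in H6, with no call.

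The interferon-induced effectors listed beside these members moved in both directions. Of 28 with a mean of at least 1 RPKM, IFIT1, IFIT2 and SAMD9L rose and ISG20 fell in all 4 comparisons of the authors' deposited table. IFIT1 had folds of 1.84 and 1.46 for I4 and H6 in experiment N and 1.53 and 1.42 in experiment B, from untreated levels of 1.05 to 1.91 RPKM. SAMD9L, an antiviral gene, had folds of 1.66 and 1.89 in experiment N and 1.87 and 2.13 in experiment B. ISG20, an RNA exonuclease, had folds of -1.25, -1.28, -1.44 and -1.42 in the same order in the authors' deposited table. Per comparison, 5, 7, 6 and 6 of the 28 were called higher and 6, 2, 4 and 2 lower, with median log2 folds of -0.01, 0.10, -0.02 and 0.10. Beside these counts stand the shares given above for all genes of at least 1 RPKM called in either direction, 22.9%, 20.3%, 19.1% and 10.3%. Shares by direction were not calculated at this level. Of genes of any level tested in all 4 comparisons, 3.69% were called in each with one sign. The 16 interferon signalling genes held no gene called in all 4. PARP9, PARP12 and PARP14 hold the motif and were not called higher. Among effectors that hold it, IFIT1 rose and ISG20 fell in all 4 comparisons. The SAMD9L window held no match, and IFIT2 was not among the effectors with a match. Whether a match goes with a direction of change was not tested.

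**Figure D4:**
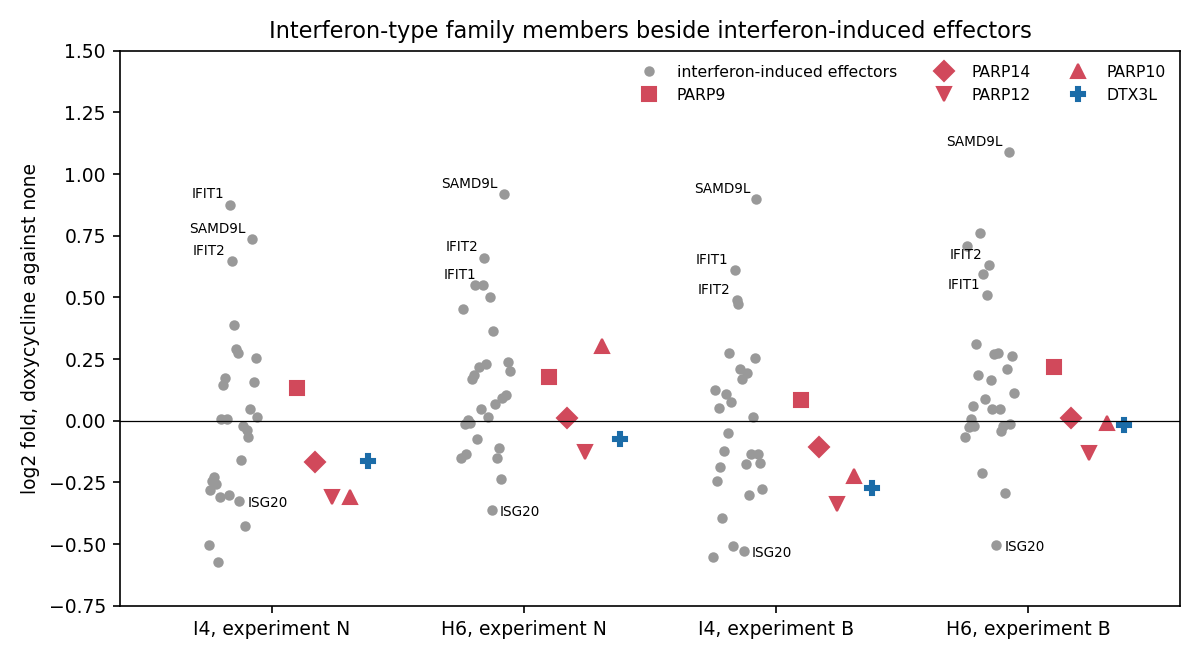
Log2 fold, doxycycline against none, of interferon-induced effectors of at least 1 RPKM (grey), of PARP9, PARP14, PARP12 and PARP10 (red) and of DTX3L (blue) in the 4 comparisons. IFIT1, IFIT2 and SAMD9L lie at 0.49 or above and ISG20 at -0.33 or below in every comparison, while the 4 members stay between -0.34 and 0.30.

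PARP16, at chr15:65234460-65300618 on the minus strand, is anchored in the endoplasmic reticulum membrane and is known to modify the stress sensors PERK (EIF2AK3) and IRE1 (ERN1). In experiment N it rose in I4, from 2.66 to 3.41 RPKM (fold 1.28, q-value 0.0218 in the authors' deposited table). In H6 of experiment N its levels were 2.67 without and 3.34 RPKM with doxycycline (fold 1.25, q-value 0.0569). In experiment B the groups were level, at 3.34 and 3.36 RPKM in I4 (fold 1.01) and 3.59 and 3.50 RPKM in H6 (fold -1.03), both with a q-value of 1.00 in the authors' deposited table. The mean log2 fold of PARP16 was 0.34 over experiment N and -0.01 over experiment B. The difference between the experiments was not tested, since that needs values per library.

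Of the 7 listed genes of endoplasmic reticulum stress, ERN1 fell in all 4 comparisons of the authors' deposited table. Its level without and with doxycycline was 4.80 and 2.49 RPKM for I4 and, for H6, 5.92 and 4.05 RPKM in experiment N, with folds of -1.93 and -1.46. In experiment B the folds were -1.90 in I4 and -1.46 in H6. EIF2AK3 was not called, with folds of 1.00 to 1.08. DDIT3, the stress-induced factor CHOP, was called higher in I4 (fold 1.4, q-value 0.0171) and H6 (fold 1.39, q-value 0.000498) of experiment N, as PARP16 was in I4. Its folds in experiment B were -1.02 in both clones. HSPA5, the chaperone BiP, was called higher in H6 in both experiments (folds 1.26 and 1.3) and had negative folds in I4. XBP1 of the same list was called lower in I4 of experiment N (fold -1.19, q-value 0.00549), the comparison in which PARP16 was called higher. ATF6 was called higher in H6 of experiment B (fold 1.18, q-value 0.0425), and ATF4 was not called.

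PARP11, at chr12:3791047-3873448 on the minus strand, was higher with doxycycline in 4 of 4 comparisons and was called in 1. In H6 of experiment B its level was 0.807 RPKM without and 1.14 RPKM with doxycycline in the authors' deposited table (fold 1.42, q-value 0.0378). The untreated value of this comparison rests on 2 libraries and was the lowest of the 4 untreated values, the others being 0.906 RPKM in I4 and 1.00 RPKM in H6 of experiment N and 1.04 RPKM in I4 of experiment B. With doxycycline PARP11 lay between 1.05 and 1.18 RPKM in every comparison. The other 3 folds were 1.16, 1.13 and 1.14, with q-values of 0.447, 0.667 and 0.605 in the authors' deposited table. PARP11 had the largest mean log2 fold of the members of at least 1 RPKM, 0.27 (SD 0.15 over the 4 comparisons), on about 494 to 762 reads per level. At 0.5 to 2 RPKM and a fold of 1.25 to 1.5 in either direction, 15.8% of genes were called in this comparison, against 26.1% to 30.7% in the other 3.

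TIPARP, at chr3:156673235-156706770 on the plus strand, showed little difference. Its levels without and with doxycycline were 11.9 and 11.9 RPKM for I4 and, for H6, 13.7 and 14.2 RPKM in experiment N of the authors' deposited table. In experiment B they were 13.9 and 15.4 RPKM for I4 and, for H6, 15.1 and 16.4 RPKM. The largest fold was 1.11 and the smallest q-value 0.213. The aryl hydrocarbon receptor gene AHR itself was called higher in 3 of 4 comparisons. Its folds in the authors' deposited table were 1.28 in I4 of experiment N, 1.43 in I4 of experiment B and 1.24 in H6 of experiment B, and in H6 of experiment N the fold was 1.14 with a q-value of 0.0569. The receptor's classical targets CYP1A1 and CYP1B1 were listed at 0.328 RPKM or less with no call. NQO1, a quinone reductase among its targets, was called higher in both clones of experiment N (folds 1.15 and 1.17) and not in experiment B (1.04 and 1.13). Of the 10 genes of this list 5 reach 1 RPKM, and 3, 1, 2 and 1 of them were called higher and 0 lower in the 4 comparisons, beside the same shares of all genes of at least 1 RPKM. These calls belong to AHR, NQO1 and ALDH3A1, an aldehyde dehydrogenase that was called higher in I4 in both experiments (folds 1.70 and 1.51). In H6 the ALDH3A1 folds were 1.09 in experiment N and 1.52 in experiment B, with no call. Its listed levels there were lower, 0.688 and 0.565 RPKM, against 2.90 and 1.89 RPKM in I4.

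PARP8, at chr5:50665899-50846522 on the plus strand, was tested in all 4 comparisons without a call. Its levels without and with doxycycline were 0.760 and 0.812 RPKM for I4 and, for H6, 0.538 and 0.593 RPKM in experiment N of the authors' deposited table. In experiment B they were 1.17 and 1.16 RPKM for I4 and, for H6, 0.722 and 0.762 RPKM. The untreated level of PARP8 was 1.41-fold lower in H6 than in I4 in experiment N and 1.61-fold lower in experiment B. The median size of this difference between the clones over genes of at least 1 RPKM was 1.11-fold and 1.14-fold. No other member of at least 1 RPKM was more than 1.16-fold apart between the untreated clones, except PARP11 in experiment B, which was 1.29-fold lower in H6. The table does not test the clones against each other, so these values are a description.

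PARP6, a close relative of PARP8, was listed near 0. It lies at chr15:72241181-72272999 on the minus strand. Its listed level was 0.00286 and 0.00277 RPKM for I4 and H6 in experiment N, which is about 2 reads in a group of 3 wells, and 0 in experiment B, where it was not tested. No fold is given for so few reads. The low values were not limited to PARP6: the 6 gene rows in order PARP6, AC009690.3, AC009690.1, CELF6, HEXA and TMEM202 were all listed at 0.00705 RPKM or less in the 4 comparisons of the authors' deposited table. Among them HEXA encodes a subunit of a lysosomal enzyme of general use. These rows are not 6 separate loci. AC009690.3 overlaps PARP6, with 356 shared exon bases, and also spans part of CELF6, while AC009690.1 overlaps CELF6 and HEXA. The flanking gene on one side, PKM, which encodes a pyruvate kinase, was listed at 707 to 826 RPKM, and that on the other, ARIH1, which encodes a ubiquitin ligase, at 2.79 to 3.19 RPKM. These 2 genes are 242.5 kb apart. Of 19830 protein-coding rows, 3610 (18.2%) were listed under 0.01 RPKM in all 4 comparisons. The cause of the low values along this stretch was not tested.

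**Figure D5:**
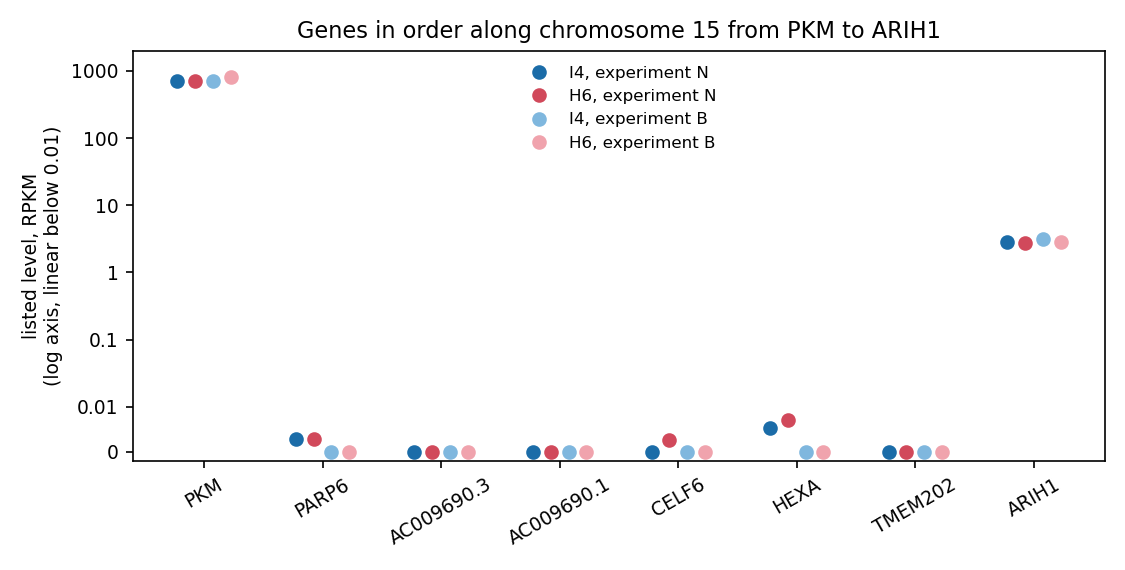
Listed level in RPKM (log axis, linear below 0.01) of the genes in order along chromosome 15 from PKM to ARIH1 for the 4 comparisons. PARP6 and the 5 genes next to it lie at 0.00705 RPKM or less, between PKM at 707 to 826 RPKM and ARIH1 at 2.79 to 3.19 RPKM.

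Among the other genes of ADP-ribose metabolism, PARG and PARP1 were called most often. Of the 7 other PARP family genes 6 reach 1 RPKM, and only PARP1, the main chain-forming enzyme, was called. PARP1 had folds of -1.38 in I4 and -1.25 in H6 of experiment N and -1.29 in I4 of experiment B in the authors' deposited table, and -1.16 with a q-value of 0.0755 in H6 of experiment B. Its untreated levels were 170 to 217 RPKM, above those of every mono-ADP-ribosyltransferase on the same scale. Of 8 genes of at least 1 RPKM on the list of erasers, PARG was called higher in all 4 comparisons. ADPRHL2, the hydrolase ARH3 that removes ADP-ribose from serine, was called higher in both clones of experiment N (folds 1.17 and 1.22), and ENPP1, a phosphodiesterase, was called higher in I4 in both experiments (folds 1.24 and 1.39). MACROD1, ADPRH, ADPRHL1, OARD1 and NUDT16, the other genes of at least 1 RPKM on that list, had folds between -1.11 and 1.14 with no call in the authors' deposited table. Of 8 readers of ADP-ribose, none was called in more than 1 comparison. SIRT6, which can add a single ADP-ribose unit to proteins and was the only one of 6 listed ectoenzyme transferases and sirtuins to reach 1 RPKM, was not called. Of 6 genes of NAD supply that reach 1 RPKM, none was called in all 4. NMNAT2, which makes NAD+ from its mononucleotide, was called higher in I4 in both experiments (folds 1.21 and 1.28), and NAMPT, the rate-limiting enzyme of NAD salvage, had folds of -1.14 to 1.02 with no call.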

How the data were processed

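The file holds 4 comparisons made by the authors and no value per library. The deposited level is the higher group mean, which the values place on the RPKM scale; the file does not name the unit. The deposited signed fold is a score that never lies between -1 and 1. The deposited q-value is the authors' adjusted p-value. The genome build was hg38, per the submitters' processing notes. Not given in the sources used here are the aligner, the counting program and the test. A count model, leaving out replicates and a replicate block need values per library and could not be run. Groups follow the labels. A gene was called at a q-value under 0.05. Depth was read from the level of 1 read times exon length. Names were matched to GENCODE v29 for position, exon length and GC content (21376 of 21463 rows). Promoter sequences are from RefSeq, GRCh38.p14.

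All members are named; of each of the 10 other lists, the rule takes genes called in all 4 comparisons with one sign, up to 4 more ranked by their largest q-value, the erasers of at least 1 RPKM, DTX3L, PARG, AHR and 1 gene that is not reported here. Not every list gene that the rule takes is described. It would also name the genes most like a member called with one sign in at least 3 comparisons, of which there were 0. GRINA, SPATC1, EIF2AK3, CYP1A1, CYP1B1, the neighbours of PARP6 and the genes of the last part that the rule does not take were chosen with their values in view. The members and lists were chosen with earlier results of these data known. Of the listed names, 5 have no row, and older symbols stand in where they exist. The counting of calls was tested on simulated data. Analyses used Python 3.11.15, pandas 2.3.3, numpy 2.4.6 and matplotlib 3.10.9.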

Additional observations from a re-analysis of the deposited data

Results flagged for a closer look

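PARP10 stood out because its effect had opposite signs in the 2 clones of experiment N, each called by the authors' q-value: the log2 fold in H6 minus that in I4 was 0.61. The difference itself was not tested, since the deposited table holds no value per library. In experiment B both clones had negative folds with no call, so the opposite signs were not seen there.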

How the results depend on the processing

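Under a q-value under 0.01, the members called higher fell from 2 to 1 for I4 in experiment N (PARP16 was lost) and from 1 to 0 for H6 in experiment B (PARP11 was lost). Under a q-value under 0.1, those called higher went from 1 to 2 for H6 in experiment N (PARP16 was added) and from 0 to 1 for I4 in experiment B (PARP4 was added), and those called lower went from 1 to 2 for I4 in experiment N (PARP12 was added). The change of threshold itself moves these calls. The count called in all 4 comparisons stayed 0 under each alternative, also with 1 comparison left out. The other 49 values for counts, medians, shares and promoter matches and 57 for the mean log2 fold of single members were labelled the same. Counts and shares were so labelled when equal or within 1.5-fold. The share of genes called rose from 15.7% to 22.9% for I4 in experiment N at 1 RPKM or more, within that limit. Medians and means were so labelled when they moved by less than the spread used for each. For a single member this spread was the SD of its own folds. Means over only 1 clone or experiment could therefore only come out the same, and they are no check of stability. Centring on genes of like GC content was chosen after seeing the data. The mean log2 fold of PARP10 was -0.27 over clone I4 and 0.15 over clone H6, against -0.06 over all 4 comparisons. That of PARP16 was 0.16 over all 4 and -0.01 over experiment B.

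No paired analysis was possible because the deposited table holds no value per library. For the same reason leaving out each replicate in turn was not run, and the spread between wells behind a q-value is not known. Depth limits PARP8, PARP11 and, in experiment B, PARP10 and PARP16, whose levels rest on about 370 to 915 reads.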

Other observations

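Of 44 interferon signalling genes and effectors of at least 1 RPKM, 9 were called with one sign in both experiments of one clone and in neither experiment of the other, a pattern chosen after the values were seen; the difference between clones was not tested. Of those called in I4, 1 was higher (IFIT3) and 5 were lower (DDX58, IFNAR2, IRF1, OAS3 and SOCS1), beside 2.19% and 1.88% of the 10752 genes of that level. Of those called in H6, 2 were higher (DDX60 and IFI44) and 1 was lower (RNF213), beside 0.725% and 0.744%. IFIT3 had folds of 1.31 in experiment N and 1.39 in experiment B in I4, against 1.17 and 1.12 in H6, in the authors' deposited table. SOCS1, an inhibitor of cytokine signalling, had folds of -2.12 and -3.34 in I4 against -1.25 and -1.63 in H6. Its listed level reached 1 RPKM only in experiment N, at 1.89 RPKM in I4 and 1.75 RPKM in H6. In experiment B it was 0.536 and 0.593 RPKM, so the SOCS1 folds of that experiment rest on low levels. IFNAR2, a subunit of the type I interferon receptor, had folds of -1.26 and -1.23 in I4 against 1.04 and -1.03 in H6. DDX58, which encodes the RNA sensor RIG-I, had folds of -1.42 and -1.47 in I4 against -1.11 and -1.05 in H6. IRF1, an interferon-responsive transcription factor, had folds of -1.28 and -1.45 in I4 against 1.09 and 1.04 in H6. OAS3, which makes the activator of RNase L, had folds of -1.34 and -1.23 in I4 against -1.11 and -1.03 in H6. In H6, DDX60 had folds of 1.37 and 1.63 against -1.21 and 1.09 in I4, and IFI44 had folds of 1.46 and 1.70 against 1.10 and -1.03. RNF213, a ubiquitin ligase, had folds of -1.18 and -1.23 in H6 against -1.05 and 1.01 in I4. A missing call is not an absent response: IFIT3 in H6 of experiment N had a q-value of 0.0650. In experiment B, 10.3% of genes of at least 1 RPKM were called in H6, whose untreated group has 2 libraries, against 19.1% in I4.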
